A study of Homo sapiens with 12 samples.

Results

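The 10 genes described here, CTGF, CYR61, ANKRD1, AMOTL1, AMOTL2, WWC1, AJUBA, LATS2, IGFBP3 and F3, are known targets of the transcriptional coactivator YAP and its TEAD partners, and they were taken by gene symbol from 26535 measured features. All 10 were found and all 10 passed the filter on low counts. RNA was sequenced from 4 groups of 3 libraries, made from A549 and H1299, both established lines of human lung carcinoma. The groups were A549 carrying a VGF lentivirus (genotype label VGF-OE), A549 carrying the empty vector (genotype label WT), H1299 carrying the VGF lentivirus and H1299 carrying the empty vector. The VGF protein is a precursor of neuropeptides that neuroendocrine cells secrete, and the comparison asked what its overexpression does to gene expression in each line. A549 was grown in DMEM/F12 and H1299 in RPMI-1640, both with serum, so a difference between the lines includes the medium. The treatment free text of all 12 libraries names the empty vector and was not used for grouping. The design text calls the replicates biologically independent. Whether the transduced cells were clones or pools is not given in the sources used here.

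In the Hippo pathway a kinase cascade ends in LATS1 and LATS2, which phosphorylate YAP and its paralog TAZ (gene WWTR1) and so keep them out of the nucleus. When the cascade is low, YAP and TAZ enter the nucleus, bind TEAD transcription factors and switch on genes for secreted and matrix proteins. Several of the same targets, among them LATS2 and the angiomotins AMOTL1 and AMOTL2, restrain YAP in turn and close a feedback loop. CTGF, CYR61 and ANKRD1 are the genes most often read as a measure of YAP activity.

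TEAD factors bind a short core, GGAATG. It was searched on both strands from 250 bases before to 50 bases after the RefSeq start used for each gene, in the RefSeq promoters of build GRCh38.p14. Other starts of the same gene were not searched. The window of 9 of the 10 genes was found, and CYR61 had no entry. The 3 windows that held the core are printed 5′ to 3′ on the strand of the gene, with the core in capitals. Whether the cores bear on the RNA levels given below was not tested. The windows are chr6:131951323-131951622 for CTGF, chr10:90921038-90921337 for ANKRD1 and chr13:21061537-21061836 for LATS2, all on the minus strand.
CTGF: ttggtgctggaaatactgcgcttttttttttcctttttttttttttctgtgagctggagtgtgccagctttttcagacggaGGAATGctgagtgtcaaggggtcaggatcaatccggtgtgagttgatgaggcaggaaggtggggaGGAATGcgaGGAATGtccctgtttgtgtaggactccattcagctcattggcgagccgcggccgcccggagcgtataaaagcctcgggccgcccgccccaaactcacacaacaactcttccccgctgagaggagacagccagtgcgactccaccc
ANKRD1: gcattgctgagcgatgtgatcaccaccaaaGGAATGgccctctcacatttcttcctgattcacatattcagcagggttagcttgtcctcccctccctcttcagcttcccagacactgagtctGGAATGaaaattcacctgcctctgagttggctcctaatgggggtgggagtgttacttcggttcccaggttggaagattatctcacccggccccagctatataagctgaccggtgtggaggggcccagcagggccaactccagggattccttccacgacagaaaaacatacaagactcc
LATS2: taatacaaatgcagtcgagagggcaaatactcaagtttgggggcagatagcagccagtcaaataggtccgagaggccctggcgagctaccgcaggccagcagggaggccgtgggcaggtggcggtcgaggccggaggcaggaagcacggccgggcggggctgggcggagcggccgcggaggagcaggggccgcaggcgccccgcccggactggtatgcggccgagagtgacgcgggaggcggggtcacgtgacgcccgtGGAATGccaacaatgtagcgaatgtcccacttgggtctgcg

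The CTGF window held 3 cores, with first bases 169, 104 and 95 bases before the start. The ANKRD1 window held 2, at 220 and 128 bases before the start, and between them 1 match of TGANTCA, the motif of the AP-1 factors, at 195 bases before the start. The single core of LATS2 lay 10 bases after the start. The F3 window held 2 TGANTCA matches (TGAATCA and TGAGTCA) and no TEAD core, and the windows of AMOTL1, AMOTL2, WWC1, AJUBA and IGFBP3 held neither. The AMOTL1 window (chr11:94768106-94768405, plus strand) lay inside the gene. In GENCODE the gene begins at 94706431, and that start was not searched. The IGFBP3 window (chr7:45921223-45921522, minus strand) also lay inside its gene. In GENCODE IGFBP3 begins at 45921874, and that start was not searched either. Of 35116 promoter windows of this length, 14% held GGAATG and 7.71% held TGANTCA. A match is a string of letters and not a measured binding site.

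Library totals ran from 31378171 to 41919484 counts. VGF checked the labels: it stood at 1361, 1201 and 1287 CPM in the A549 VGF libraries and 2.74, 2.54 and 2.01 CPM in the A549 empty-vector libraries, and at 886, 941 and 1114 CPM in the H1299 VGF libraries and 77.2, 90.5 and 89.0 CPM in the H1299 empty-vector libraries. CPM is the usual scaling of counts to library size, here with TMM-scaled totals. Of the cell markers, the keratin gene KRT8 was abundant in every group (mean 4178 and 3696 CPM in A549 VGF and empty-vector cells, 484 and 471 CPM in H1299 VGF and empty-vector cells), and the epithelial cadherin gene CDH1 had 0 counts in all 6 H1299 libraries. Other genes of that list differed from KRT8. The epithelial gene EPCAM was at 0.978 CPM or less in every library. KRT7, another keratin gene, stood at 1015 to 1227 CPM in A549 libraries and 0.705 to 2.04 CPM in H1299 libraries. VIM, the vimentin gene, stood at 1140 to 1526.6 CPM in A549 libraries and 5721 to 6666.5 CPM in H1299 libraries. One library stood apart. A549 VGF library 2 held transcripts of endothelial cells, which line blood vessels: all 20 of a list of endothelial markers were higher in it than in any other A549 library. Their sum was 622 CPM in that library, 93.1 and 98.0 CPM in the other A549 VGF libraries and 80.7 to 92.6 CPM in the A549 empty-vector libraries, while H1299 libraries held 30.6 to 35.0 CPM with VGF and 30.1 to 33.5 CPM with empty vector. Most of the sum in A549 VGF library 1 came from ESAM (35.7 CPM) and EGFL7 (47.3 CPM). In H1299 empty-vector library 1 EGFL7 stood at 20.3 CPM. PECAM1, CDH5 and VWF, which define endothelial cells, stood at 84.5, 86.6 and 39.8 CPM in library 2 and at 1.83, 0.631 and 0.581 CPM or less in the other A549 libraries. The VGF effects of the target genes in A549 are therefore given with and without this library. The RNA is of whole cultures, so a change in the share of a kind of cell and a change in RNA per cell cannot be told apart.

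With VGF in A549, CTGF was the target gene with the largest difference, but its size rested on library 2. All 10 log2 fold changes were above 0, although that of LATS2 was below 0 with upper-quartile scaling and on FPKM. Their median was 0.25, against 0.00 over all 18228 features tested. None of the 10 was called at an adjusted p under 0.05 by edgeR's quasi-likelihood test with Benjamini-Hochberg adjustment, while 0.79% of all features were. At an unadjusted p under 0.05, 6 of the 10 were higher (CTGF, CYR61, AMOTL2, WWC1, AJUBA and IGFBP3), against 8.1% of all features. In 5 of the 10 every VGF library lay above every empty-vector library (CTGF, AMOTL2, WWC1, AJUBA and F3), against 9.28% of all features. DESeq2 called 3 of them higher (CTGF, AMOTL2 and WWC1), against 2.36% of all features, and limma voom called 1 (WWC1), against 0.85%.

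**Figure D1:**
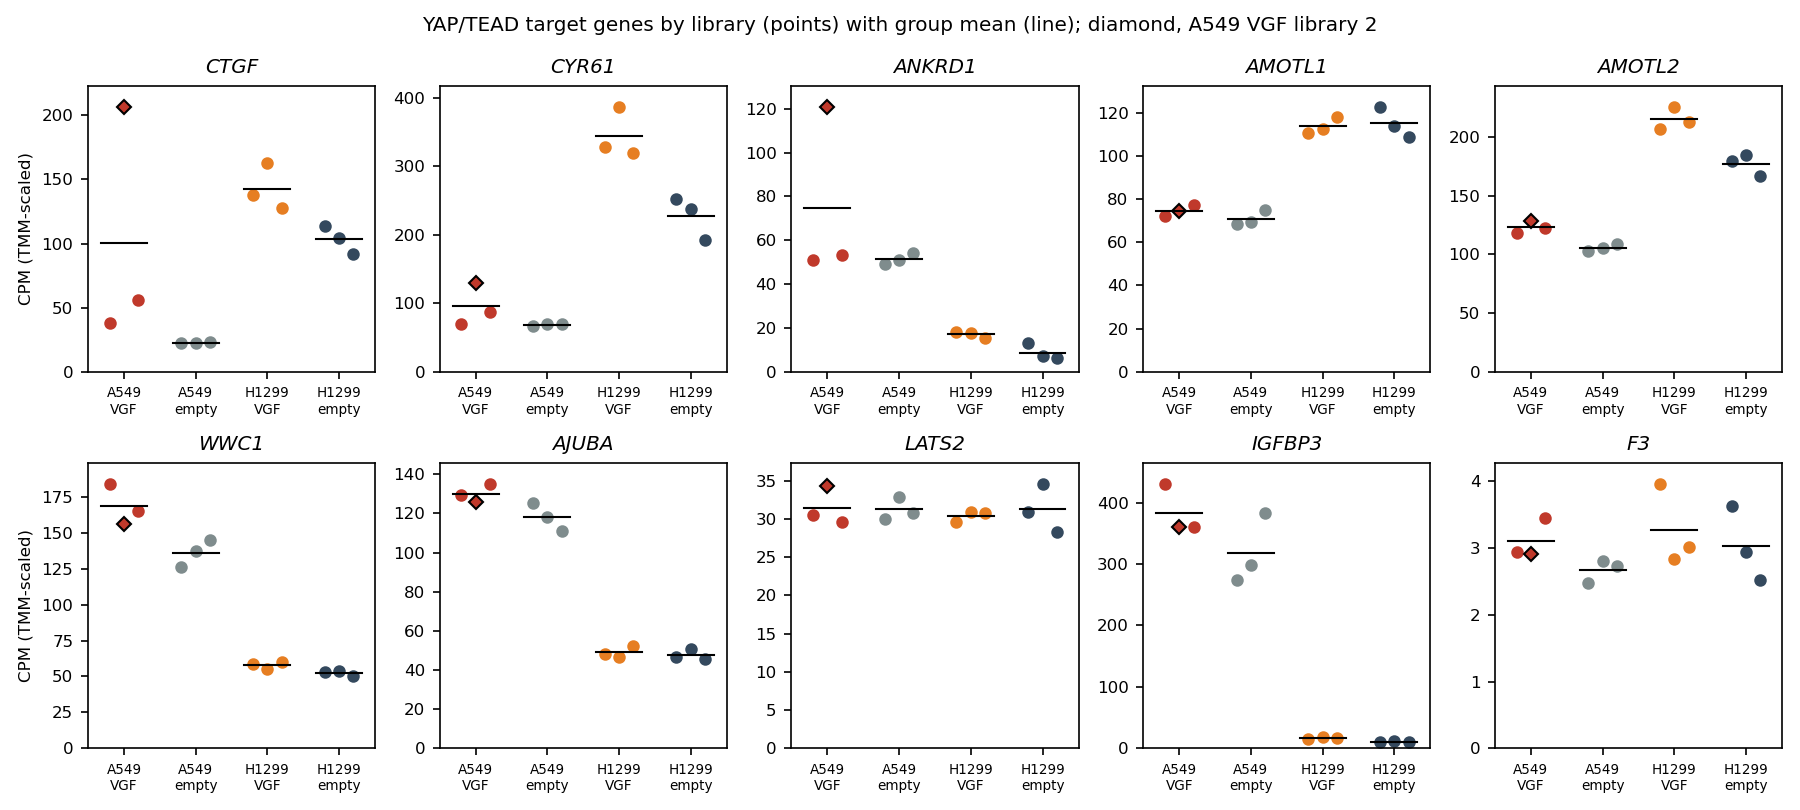
CPM (vertical axes, from 0, a different range per gene) of the 10 YAP/TEAD target genes in the 4 groups; each point is 1 library, the line is the mean of 3 and the diamond is A549 VGF library 2. The diamond stands at 206 CPM for CTGF, 129.7 for CYR61 and 121 for ANKRD1, far above the other A549 VGF points, and is the lowest A549 VGF point for WWC1, AJUBA, IGFBP3 and F3.

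CTGF (also CCN2; ENSG00000118523, GRCh38 chromosome 6, 131948176 to 131951373, minus strand) encodes a secreted matricellular protein that promotes matrix deposition. It stood at 38.4, 206 and 56.1 CPM in the A549 VGF libraries and at 22.4, 22.6 and 23.5 CPM in the A549 empty-vector libraries. All 3 VGF libraries were above all 3 empty-vector libraries, and library 2 was also above every H1299 library. The log2 fold change was 2.14 (95% interval 1.13 to 3.15, SE 0.47, adjusted p = 0.0582). Without library 2 it was 1.05 (0.73 to 1.38, SE 0.15), CTGF was called (adjusted p = 0.00765), and all 6 remaining pairs of libraries were higher with VGF. It was also called without VGF library 1, at 2.53 (adjusted p = 0.0138), and its adjusted p reached 0.212 when a single other library, A549 empty-vector library 1, was left out. In GENCODE, 8.34% of the exonic bases of CTGF overlap AL133346.1 on the opposite strand, and the counting is not stated to use strand.

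CYR61 (also CCN1; ENSG00000142871, chromosome 1, 85580761 to 85583962, plus strand) encodes the other matricellular protein of this pair, which acts on integrins. It stood at 69.7, 129.7 and 86.9 CPM in the A549 VGF libraries and at 66.8, 70.2 and 70.1 CPM in the A549 empty-vector libraries. VGF library 1 lay within the empty-vector range. The log2 fold change was 0.47 (0.086 to 0.86, adjusted p = 0.259), and 0.18 without library 2 (-0.081 to 0.45, adjusted p = 0.669).

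ANKRD1 (ENSG00000148677, chromosome 10, 90912096 to 90921276, minus strand), an ankyrin-repeat protein best known as a nuclear cofactor and titin partner in heart muscle, was high in library 2 alone. It stood at 51.0, 121 and 53.1 CPM in the A549 VGF libraries and at 49.0, 51.1 and 54.3 CPM in the A549 empty-vector libraries. VGF libraries 1 and 3 lay inside the empty-vector range. Its log2 fold change was 0.54 (-0.10 to 1.19, adjusted p = 0.456), and 0.015 without library 2 (-0.43 to 0.46).

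Measured against the mean of A549 VGF libraries 1 and 3, library 2 held 4.37-fold more CTGF, 2.32-fold more ANKRD1 and 1.66-fold more CYR61. The other 7 genes lay between 0.896-fold (WWC1) and 1.14-fold (LATS2). Thus 3 of the 10 target genes were at least 1.5-fold higher in library 2, against 4.42% of all features tested. For that share a small constant was added to the CPM on both sides of the ratio, which shrinks the ratios of scarce features. The ratios of the 10 genes are without it. The summed fibroblast list of 10 genes was 37.4 CPM in library 2, 25.9 and 29.95 CPM in the other A549 VGF libraries and 23.1 to 26.6 CPM in the empty-vector libraries. Of its genes 3 were highest in library 2, among them POSTN, a secreted matrix protein, with 473 counts (12.1 CPM) there, 3 and 2 counts in the other A549 VGF libraries and 0, 0 and 6 counts in the A549 empty-vector libraries. COL1A1, the most abundant gene of the list, stood at 22.1 CPM in library 2 and at 24.0 and 27.1 CPM in the other A549 VGF libraries. COL1A2, FAP and PDPN had 0 counts in library 2. The immune and blood list of 8 genes was 66.6 CPM in library 2, 71.2 and 73.5 CPM in the other A549 VGF libraries and 84.7 to 94.3 CPM in the empty-vector libraries. The source of the endothelial transcripts and of POSTN is not known, and what part it has in the CTGF, CYR61 and ANKRD1 values was not tested.

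**Figure D2:**
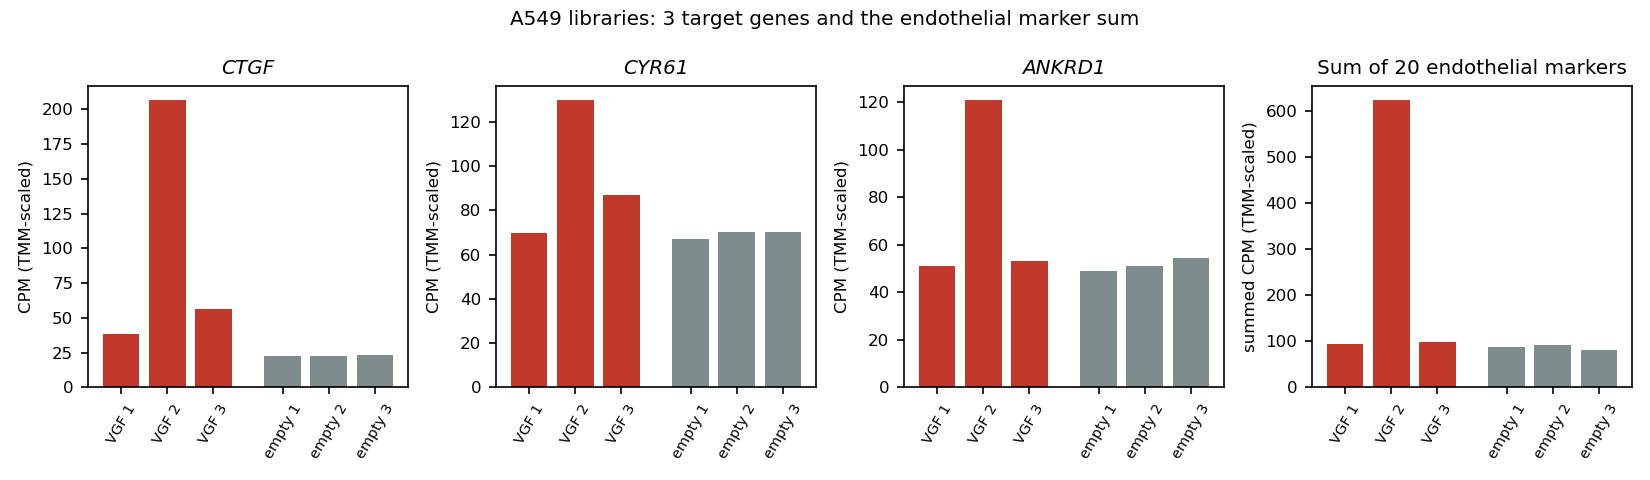
CPM of CTGF, CYR61 and ANKRD1 and the sum over 20 endothelial marker genes (vertical axes, from 0) in each A549 library; red bars are VGF libraries 1 to 3 and grey bars empty-vector libraries 1 to 3. Library 2 is the tallest bar in all 4 panels, at 622 CPM for the endothelial sum; in VGF libraries 1 and 3 CTGF (38.4 and 56.1 CPM) is above all empty-vector bars and ANKRD1 (51.0 and 53.1 CPM) is not.

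WWC1 (KIBRA; ENSG00000113645, chromosome 5, 168291651 to 168472303, plus strand), a scaffold that promotes LATS activity, stood at 184, 156 and 165 CPM in the A549 VGF libraries and at 126, 137 and 145 CPM in the A549 empty-vector libraries. The groups did not overlap, and library 2 was the lowest VGF library. The log2 fold change was 0.31 (0.16 to 0.46, adjusted p = 0.0598), and 0.36 without library 2 (0.21 to 0.51, adjusted p = 0.0399), where WWC1 was called. The deposited FPKM, which are counts per feature length and library size, gave another picture: 30.7, 28.6 and 25.8 with VGF and 24.2, 27.6 and 26.7 with empty vector, groups that overlap. On log2(FPKM + 1) with limma the difference was 0.11 (adjusted p = 0.730, and 0.864 without library 2). The length implied by the ratio of counts to FPKM ran from 4542 to 6173 bases for WWC1 over the 12 libraries, a 1.36-fold range. That range was wider than in 92.5% of 7158 features with a mean of at least 1000 counts, whose median was 1.06-fold. For CTGF, CYR61 and ANKRD1 the range was 1.01-fold.

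AMOTL2 (ENSG00000114019, chromosome 3, 134355874 to 134375479, minus strand), an angiomotin that holds YAP at cell junctions and in the cytoplasm, stood at 118, 129 and 123 CPM in the A549 VGF libraries and at 103, 105 and 109 CPM in the A549 empty-vector libraries. The groups did not overlap. The log2 fold change was 0.22 (0.11 to 0.34, adjusted p = 0.0814), and 0.19 without library 2 (0.063 to 0.31, adjusted p = 0.225). Its paralog AMOTL1 (ENSG00000166025, chromosome 11, 94706431 to 94876753, plus strand) stood at 72.1, 74.6 and 77.0 CPM with VGF and at 68.4, 69.3 and 74.9 CPM with empty vector, groups that overlap. Its log2 fold change was 0.074 (-0.050 to 0.20), the same to 2 digits without library 2 (-0.071 to 0.22).

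AJUBA (ENSG00000129474, chromosome 14, 22971174 to 22982642, minus strand), a LIM-domain protein that inhibits LATS kinases, was at 129, 126 and 135 CPM in the A549 VGF libraries and at 125, 118 and 111 CPM in the A549 empty-vector libraries. The groups were separate by less than 1 CPM at their nearest, and the log2 fold change was 0.14 (0.0040 to 0.27, adjusted p = 0.348), and 0.16 without library 2 (0.018 to 0.31, adjusted p = 0.399). LATS2 (ENSG00000150457, chromosome 13, 20973032 to 21061547, minus strand), the kinase itself, was at 30.5, 34.3 and 29.6 CPM with VGF and at 30.03, 32.9 and 30.8 CPM with empty vector. Its log2 fold change was 0.010 (-0.17 to 0.19), or -0.057 without library 2, so a change of more than 0.24 in either direction lay outside both intervals.

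IGFBP3 (ENSG00000146674, chromosome 7, 45912245 to 45921874, minus strand), a secreted carrier of insulin-like growth factors, stood at 431, 359.6 and 361 CPM in the A549 VGF libraries and at 273, 299 and 383 CPM in the A549 empty-vector libraries. Empty-vector library 3 lay above 2 of the VGF libraries. The log2 fold change was 0.27 (0.018 to 0.52, adjusted p = 0.327), and 0.31 without library 2 (0.040 to 0.59, adjusted p = 0.386). It depended on other single libraries, being 0.42 without empty-vector library 3 (adjusted p = 0.0917), 0.17 without empty-vector library 1 (adjusted p = 0.663) and 0.18 without VGF library 1 (adjusted p = 0.585). F3 (ENSG00000117525, chromosome 1, 94529225 to 94541800, minus strand), tissue factor, which starts blood coagulation, was the scarcest of the 10, at 2.94, 2.91 and 3.45 CPM with VGF and 2.47, 2.81 and 2.74 CPM with empty vector. Its groups were separate only narrowly, at 2.91 CPM with VGF and 2.81 CPM with empty vector where they came nearest. The log2 fold change of F3 was 0.22 (-0.26 to 0.69), or 0.26 without library 2 (-0.27 to 0.79).

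Without library 2, 9 of the 10 log2 fold changes in A549 were above 0, all but that of LATS2, and the median was 0.19 against 0.00 over all features. edgeR then called 2 of the 10 (CTGF and WWC1), against 0.273% of all features called higher. At an unadjusted p under 0.05, 5 of the 10 were higher (CTGF, AMOTL2, WWC1, AJUBA and IGFBP3), against 5.27%. The same 5 genes as with the library had groups that did not overlap, against 13.9% of all features with 2 libraries set against 3. A549 empty-vector library 1 was the lowest library of its group for 9 of the 10 genes, all but AJUBA. Without it, and with library 2 kept, the log2 fold changes were 2.13 for CTGF, 0.45 for CYR61, 0.26 for WWC1 (adjusted p = 0.230) and 0.20 for AMOTL2 (adjusted p = 0.265).

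**Figure D3:**
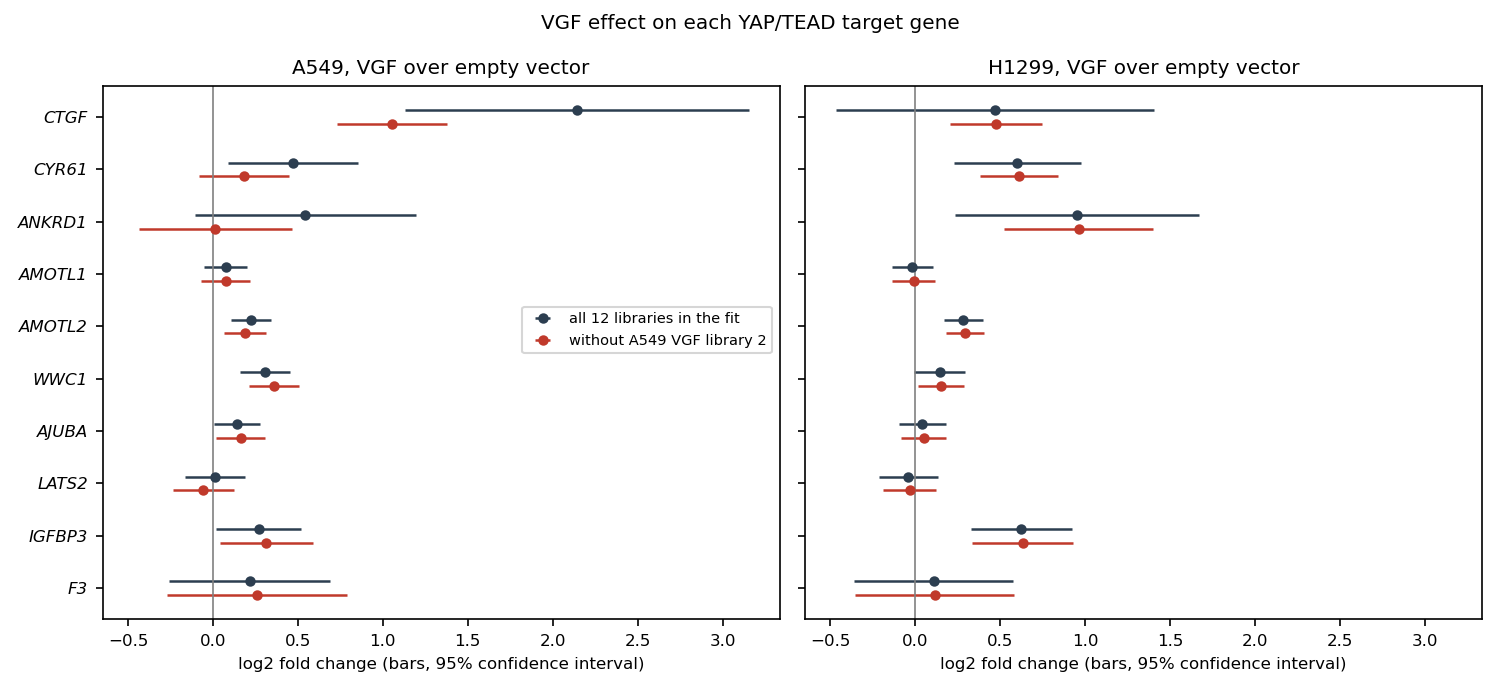
Log2 fold change of VGF over empty vector (horizontal axis, same range in both panels) with its 95% confidence interval for the 10 target genes in A549 (left) and H1299 (right); dark points are from the fit of all 12 libraries and red points from the fit without A549 VGF library 2. In A549, CTGF stands at 2.14 and 1.05 in these fits and ANKRD1 at 0.54 and 0.015; in H1299 the points hardly move and the intervals of CTGF, CYR61 and ANKRD1 become narrower.

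In H1299 the genes with the largest differences were ANKRD1, IGFBP3, CYR61 and CTGF, the secreted proteins and the nuclear cofactor. For 8 of the 10 genes the log2 fold change was above 0, all but AMOTL1 and LATS2, and the median was 0.21 against -0.0055 over all features. None was called by edgeR, and only 0.011% of all features were. In 6 of the 10 every VGF library lay above every empty-vector library (CTGF, CYR61, ANKRD1, AMOTL2, WWC1 and IGFBP3), against 5.65% of all features, and in no gene of the 10 was the order the other way round. At an unadjusted p under 0.05, 4 were higher (CYR61, ANKRD1, AMOTL2 and IGFBP3), against 3.13%. DESeq2 called 2 higher (AMOTL2, adjusted p = 0.000110, and IGFBP3, adjusted p = 0.00559), against 0.258% of all features, and limma voom called none, against 0.00549%.

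CYR61 stood at 328, 387 and 319 CPM in the H1299 VGF libraries and at 252, 237 and 193 CPM in the H1299 empty-vector libraries. Its log2 fold change was 0.60 (0.23 to 0.97, SE 0.17, adjusted p = 0.393). CTGF stood at 138, 163 and 128 CPM with VGF and at 114, 104 and 92.0 CPM with empty vector. Both matricellular genes were higher in all 9 pairs of libraries, and the log2 fold change of CTGF was 0.47 (-0.47 to 1.40, SE 0.43, adjusted p = 0.916).

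ANKRD1 stood at 18.03, 17.7 and 15.6 CPM in the H1299 VGF libraries and at 13.04, 7.23 and 6.12 CPM in the H1299 empty-vector libraries. The VGF libraries were close together and the empty-vector libraries were spread, with library 1 highest. The log2 fold change was 0.95 (0.24 to 1.67, SE 0.33, adjusted p = 0.509), 1.35 without empty-vector library 1 and 0.75 without empty-vector library 3. IGFBP3 stood at 15.3, 18.8 and 16.2 CPM with VGF and at 10.2, 11.9 and 10.5 CPM with empty vector, groups that did not overlap. Its log2 fold change was 0.62 (0.33 to 0.92, SE 0.14, adjusted p = 0.172).

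Of the remaining genes, AMOTL2 stood at 207, 225 and 213 CPM in the H1299 VGF libraries and at 179, 185 and 167 CPM in the H1299 empty-vector libraries. Its log2 fold change was 0.28 (0.17 to 0.40, adjusted p = 0.142). WWC1 stood at 58.7, 55.2 and 60.2 CPM with VGF and 53.1, 53.9 and 50.6 CPM with empty vector, a log2 fold change of 0.14 (-0.0073 to 0.29) that was 0.014 on log2(FPKM + 1). The groups of both genes were separate in CPM, those of WWC1 narrowly. AMOTL1 (-0.018, interval -0.14 to 0.10), AJUBA (0.040, -0.098 to 0.18), LATS2 (-0.041, -0.22 to 0.13) and F3 (0.11, -0.36 to 0.57) had overlapping groups. Empty-vector library 3 was the lowest library of its group for 9 of the 10 genes, all but IGFBP3. Without it the log2 fold changes were 0.39 for CTGF, 0.49 for CYR61 and 0.24 for AMOTL2.

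The edgeR fit estimates 1 spread per gene over all 4 groups, so A549 VGF library 2 also entered the H1299 test. Without that library the H1299 log2 fold change of CTGF was 0.48 with an SE of 0.13, against an SE of 0.43 with it. The adjusted p values were then 0.0911 for CYR61, 0.0955 for AMOTL2, 0.156 for ANKRD1, 0.167 for IGFBP3 and 0.334 for CTGF. edgeR still called none of the 10, against 0.0214% of all features, while 6 of the 10 (CTGF, CYR61, ANKRD1, AMOTL2, WWC1 and IGFBP3) had an unadjusted p under 0.05 and were higher, against 3.73%. DESeq2 without that library called 5 of the 10 higher (CTGF, CYR61, ANKRD1, AMOTL2 and IGFBP3), against 0.321% of all features.

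The difference between the VGF effects of the lines (A549 minus H1299) was not called for any of the 10 genes, against 0.159% of all features with edgeR. DESeq2 and limma voom also called none, against 1.66% and 0.104%. At an unadjusted p under 0.05 there was 1 gene, CTGF, against 11.2% of all features. Its difference was 1.67 (0.31 to 3.04, adjusted p = 0.361), and 0.58 without A549 VGF library 2 (0.15 to 1.00, adjusted p = 0.357). Without that library edgeR again called none of the 10, against 0.193%, and 4 of the 10 had an unadjusted p under 0.05, against 9.63%: CTGF and WWC1 (0.21) on the A549 side, and ANKRD1 (-0.95, -1.58 to -0.32, adjusted p = 0.306) and CYR61 (-0.42, -0.78 to -0.074, adjusted p = 0.413) on the H1299 side. With the library the differences of ANKRD1 and CYR61 were -0.41 and -0.13. For AMOTL2 the interval of the difference was -0.22 to 0.10.

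With empty vector alone, the lines carried the target genes in different proportions. A549 held more IGFBP3, ANKRD1, WWC1 and AJUBA than H1299 and less CTGF, CYR61, AMOTL1 and AMOTL2. These are 8 of 10 called, 4 higher in A549 and 4 lower, against 77.2% of all features called, 38.6% higher and 38.5% lower. The share called among the 10 is thus close to that of all features. IGFBP3 had the widest gap, 318 ± 57.3 CPM in A549 and 10.9 ± 0.906 CPM in H1299 (SD, n = 3 each), a log2 fold change of 4.87 (4.56 to 5.18, adjusted p = 4.72e-12).

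ANKRD1 averaged 51.5 ± 2.66 CPM in A549 and 8.80 ± 3.71 CPM in H1299 with empty vector (2.54 on the log2 scale, adjusted p = 1.14e-05). WWC1 averaged 136 ± 9.58 CPM in A549 and 52.5 ± 1.75 CPM in H1299 (1.37), and AJUBA 118 ± 7.02 CPM in A549 and 47.6 ± 2.93 CPM in H1299 (1.31). CTGF averaged 22.8 ± 0.624 CPM in A549 and 103 ± 10.9 CPM in H1299 (-2.18, adjusted p = 0.000860). Of the genes most often read as a measure of YAP activity, ANKRD1 was thus higher in A549, and CTGF and CYR61 were higher in H1299.

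CYR61 averaged 69.0 ± 1.92 CPM in A549 and 227 ± 30.9 CPM in H1299 with empty vector (-1.72). AMOTL2 averaged 105 ± 2.96 CPM in A549 and 177 ± 9.26 CPM in H1299 (-0.75), and AMOTL1 70.9 ± 3.5 CPM in A549 and 115 ± 7.05 CPM in H1299 (-0.70). AMOT, the remaining angiomotin, was also lower and averaged 0.497 CPM in A549 and 35.8 CPM in H1299 (-6.17). LATS2 did not differ beyond its spread, at 31.3 ± 1.48 CPM in A549 and 31.3 ± 3.2 CPM in H1299 (-0.0015, -0.18 to 0.17), and neither did F3, at 2.67 ± 0.175 CPM in A549 and 3.04 ± 0.558 CPM in H1299 (-0.18, -0.66 to 0.29). Upper-quartile scaling moved the median of all features to -0.11 in this comparison and log2(FPKM + 1) to -0.12, and the signs of the 8 called genes held under both.

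**Figure D4:**
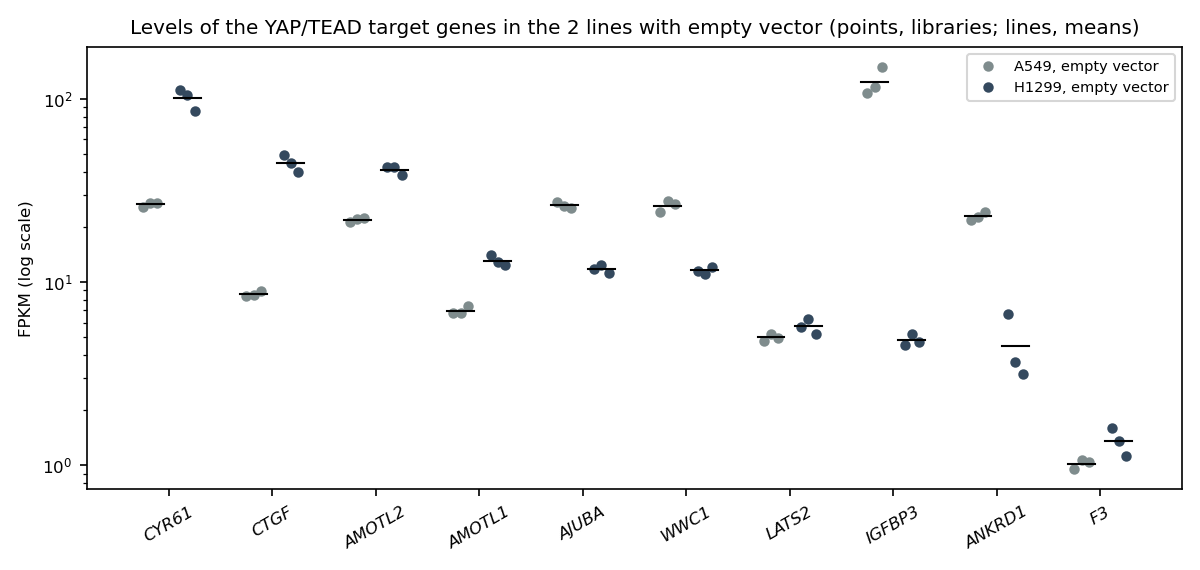
FPKM (vertical axis, log scale) of the 10 target genes in A549 (grey) and H1299 (dark) with empty vector, ordered by their mean in H1299; points are libraries and lines are means of 3. IGFBP3 stands at a mean of 124 in A549 and 4.83 in H1299, CYR61 at 26.5 in A549 and 100.5 in H1299, and the points of LATS2 lie close together.

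FPKM are per length and allow the genes to be ranked within a group. In A549 VGF cells IGFBP3 led at 149 ± 18.2 FPKM, followed by CTGF at 37.5 ± 34.6, CYR61 at 36.4 ± 11.8, ANKRD1 at 33.1 ± 17.5, AJUBA at 28.6 ± 1.24, WWC1 at 28.4 ± 2.44 and AMOTL2 at 24.8 ± 1.13. The place of CTGF rested on library 2: over VGF libraries 1 and 3 CTGF averaged 17.6 FPKM, below CYR61 (29.9), AJUBA (29.2), WWC1 (28.3), AMOTL2 (24.2) and ANKRD1 (23.0). In A549 empty-vector cells IGFBP3 led at 124 ± 22.1 FPKM, before CYR61 at 26.5 ± 0.757, AJUBA at 26.2 ± 0.977, WWC1 at 26.1 ± 1.77, ANKRD1 at 22.9 ± 1.25 and AMOTL2 at 21.8 ± 0.515, and CTGF stood at 8.59 ± 0.260. Neighbours in these orders overlapped in range from CTGF to AMOTL2 in VGF cells and from CYR61 to AMOTL2 in empty-vector cells. In both A549 groups AMOTL1 (7.29 with VGF and 6.98 with empty vector), LATS2 (4.99 in both) and F3 (1.2 and 1.02) closed the order without overlap.

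In H1299 VGF cells the order was CYR61 at 152 ± 16.9 FPKM, CTGF at 61.7 ± 8.26, AMOTL2 at 49.4 ± 2.49, AMOTL1 at 12.8 ± 0.265, AJUBA at 12.3 ± 0.365, WWC1 at 11.8 ± 1.89, ANKRD1 at 8.72 ± 0.811, IGFBP3 at 7.42 ± 0.783, LATS2 at 5.57 ± 0.0962 and F3 at 1.47 ± 0.263. In H1299 empty-vector cells CYR61 stood at 100.5 ± 13.4 FPKM, CTGF at 44.8 ± 4.68, AMOTL2 at 41.0 ± 2.27, AMOTL1 at 13.1 ± 0.846, AJUBA at 11.8 ± 0.619, WWC1 at 11.6 ± 0.499, LATS2 at 5.75 ± 0.545, IGFBP3 at 4.83 ± 0.358, ANKRD1 at 4.5 ± 1.91 and F3 at 1.36 ± 0.243. Without VGF the ranges of LATS2, IGFBP3 and ANKRD1 overlapped. With VGF, those of ANKRD1 and IGFBP3 still overlapped each other and both genes lay above LATS2.

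The genes of the proteins that act on these targets showed no called RNA difference with VGF. YAP1 averaged 129 CPM in A549 VGF cells and 136 CPM in A549 empty-vector cells (log2 fold change -0.083, -0.19 to 0.021), and 210.3 CPM in H1299 VGF cells and 210.7 CPM in H1299 empty-vector cells (-0.0023, -0.10 to 0.10). WWTR1, the gene of TAZ, averaged 246 and 237 CPM in A549 VGF and empty-vector cells (0.058) and 198 and 204 CPM in H1299 VGF and empty-vector cells (-0.047). In A549 the log2 fold change was 0.047 for TEAD1, -0.016 for TEAD2, -0.064 for TEAD3 and 0.0073 for TEAD4. Without library 2 it was 0.070 for TEAD1, -0.024 for TEAD2, 0.026 for TEAD3, 0.0082 for TEAD4, -0.091 for YAP1 and 0.037 for WWTR1. In H1299 it was -0.012 for TEAD1, -0.071 for TEAD2, -0.091 for TEAD3 and 0.13 for TEAD4. No gene of this list had an unadjusted p under 0.05 in either line, against 8.1% of all features higher and 5.77% lower in A549 and 3.13% higher and 4.67% lower in H1299, and DESeq2 and limma voom also called none.

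By FPKM with empty vector, WWTR1 stood at 50.0 in A549 and 51.6 in H1299, YAP1 at 25.2 in A549 and 45.2 in H1299, TEAD1 at 37.1 in A549 and 22.4 in H1299, TEAD4 at 20.02 in A549 and 38.0 in H1299, TEAD2 at 15.4 in A549 and 12.4 in H1299, and TEAD3 at 4.14 in A549 and 4.91 in H1299. In counts, A549 was called lower for YAP1 (-0.63) and TEAD4 (-0.75) and higher for TEAD1 (1.02), TEAD2 (0.53) and WWTR1 (0.21), and TEAD3 was not called. These are 5 of 6 called, against 77.2% of all features. The cofactor genes VGLL3 and VGLL4 were tested without a call for VGF, VGLL2 had 0 counts in every A549 library, and VGLL1 did not pass the filter. Of the 9 tested genes of this list 3 were positive in A549 and 3 in H1299, with medians of -0.016 and -0.0051. The 9 include VGLL2, whose value in A549 rests on no counts and is not a measured effect. Without library 2, 5 were positive in A549, with a median of 0.0082.

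A list of 15 other YAP/TEAD targets held 1 called gene in A549, against 0.79% of all features. It was CCDC80, a secreted matrix-associated protein, at 92.9, 79.3 and 85.4 CPM with VGF and 64.1, 67.0 and 62.3 CPM with empty vector. Its log2 fold change was 0.41 (0.25 to 0.58, adjusted p = 0.0294), and 0.47 without library 2 (adjusted p = 0.0171). Leaving out A549 empty-vector library 1 or 3 or VGF library 1 or 3 ended that call (adjusted p = 0.103, 0.0855, 0.0637 and 0.0650). On log2(FPKM + 1) its adjusted p was 0.124. Of the 15 genes 12 were positive, with a median of 0.077, and 9 with a median of 0.027 without library 2.

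AXL, a receptor tyrosine kinase (0.20, adjusted p = 0.137), and NUAK2, a kinase of the AMPK family (0.38, adjusted p = 0.249), also had VGF libraries above all empty-vector libraries in A549, and had log2 fold changes of 0.19 (AXL) and 0.45 (NUAK2) without library 2. Such separation held for 4 of the 15 genes, against 9.28% of all features. In H1299, 7 of the 15 were positive, with a median of -0.012, and none was called by edgeR, DESeq2 or voom, against 0.011%, 0.763% and 0.00549% of all features in either direction. At an unadjusted p under 0.05, 1 was lower, against 4.67% of all features. CCDC80 had a log2 fold change of -0.057 there (-0.22 to 0.11), and the difference between the lines was not called (adjusted p = 0.135). TGFB2, a growth factor of the TGF-beta family, had the smallest p of the list in H1299 (-0.38, adjusted p = 0.510). FOXF2 had 0 counts in 5 of the 6 H1299 libraries and 2 counts in VGF library 2.

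**Figure D5:**
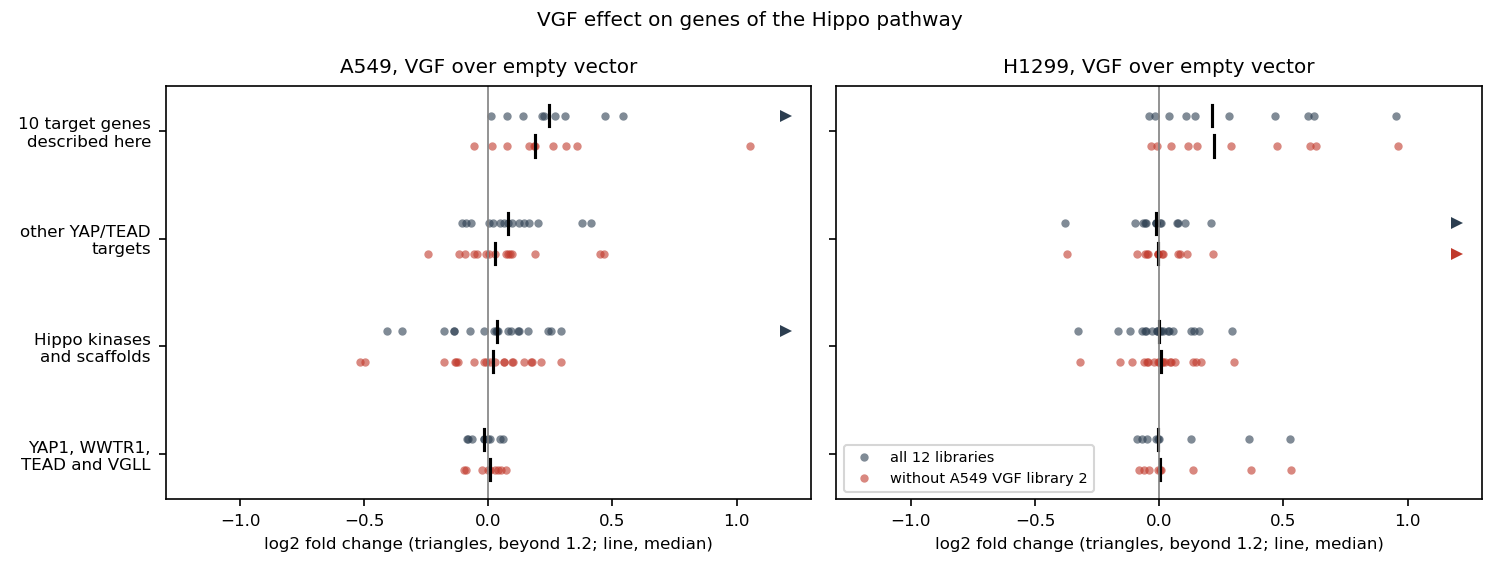
Log2 fold change of VGF over empty vector (horizontal axis) for each tested gene of 4 lists in A549 (left) and H1299 (right); points are genes, black lines are list medians, triangles are values above 1.2, dark is the fit of all 12 libraries and red the fit without A549 VGF library 2. The medians of the 10 target genes are 0.25 and 0.19 in A549 and 0.21 and 0.22 in H1299, and those of the other 3 lists lie between -0.016 and 0.077. VGLL2, which had no counts in A549, is among the genes shown.

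Among 20 kinases, adaptors and scaffolds of the Hippo cascade none was called by edgeR in either line (0.79% of all features in A549 and 0.011% in H1299), with 13 positive and a median of 0.036 in A549 and 10 positive and a median of -0.0014 in H1299. In A549, 5 were higher and 3 lower at an unadjusted p under 0.05, against 8.1% and 5.77% of all features. Without library 2 these were 3, against 5.27% of all features, and 2, with the share of all features lower not given here. In H1299, 1 was higher and 1 lower, against 3.13% and 4.67%. DESeq2 called 1 of the 20 lower in A549, against 1.64% of all features, and none in H1299, against 0.763% in either direction. Voom called none in A549, against 1.83%, and none in H1299, against 0.00549%. VGF libraries lay above all empty-vector libraries for 3 of the 20 and below them for 3 in A549, against 9.28% and 9.08% of all features, and for 1 and 1 in H1299, against 5.65% and 7.07%. FAT4, an atypical cadherin upstream of the kinases, had the smallest p in A549 (-0.41, adjusted p = 0.114, and -0.50, adjusted p = 0.0890, without library 2). LIMD1, a LIM protein related to AJUBA that binds LATS kinases, lay below all empty-vector libraries in both lines, by -0.14 in A549 (adjusted p = 0.136, and -0.12 without library 2) and -0.17 in H1299 (adjusted p = 0.294). SAV1, the adaptor of the first kinase, and MOB1A, the cofactor of LATS, lay above all empty-vector libraries in A549 (0.24, adjusted p = 0.180, and 0.16, adjusted p = 0.180), or 0.21 (SAV1) and 0.14 (MOB1A) without library 2. DCHS1, the cadherin partner of FAT4, had 31, 304 and 18 counts in the A549 VGF libraries and 25, 21 and 24 counts in the A549 empty-vector libraries, so its log2 fold change of 2.18 was 0.17 without library 2.

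Across the 12 libraries and 11138 genes with a symbol and a mean of at least 5 CPM, the 5 genes whose log2 CPM followed CTGF most closely included FSTL1 (Pearson r = 0.970), MT2A (0.969), ACTR3 (0.965) and PPP1CC (0.951). They are given as a description: the libraries fall into 2 lines, and A549 VGF library 2 weighs on the ranking. Without library 2 the closest were SPC25, DNAJC8, AURKA, CIP2A and TUBB (0.980 to 0.988). For CYR61 they were CD59 (0.991), AMOTL2 (0.989), OSTF1 (0.988), SERBP1 (0.984) and NUDCD1 (0.983), and without library 2 AMOTL2 again ranked second, after ACAT2 (both 0.993). CTGF and CYR61 had r = 0.850 with each other, and 0.963 without library 2.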

How the data were processed

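RNA was sequenced in 12 libraries. The authors deposited whole-number counts per feature and, in a second table, FPKM, counts divided by feature length and library size. GRCh38 and DESeq2 are named in the submitters' processing notes, without version. No aligner, counting tool or use of strand is given in the sources used here. Stray text on 18 lines was left out. Features were matched to GENCODE release 29 by Ensembl ID.

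The deposited counts were tested with edgeR 4.0.16 in R 4.3.3 (quasi-likelihood F test, TMM scaling, filterByExpr by group, 4 group means, 8 residual degrees of freedom). The filter left 18228 features, over which p-values were adjusted by Benjamini-Hochberg, and a feature was called under 0.05. Intervals are 95% intervals of the log2 fold change. The script was tested on simulated data. Alternatives were DESeq2 1.42.0, limma 3.58.1 voom, limma on log2(FPKM + 1) and log2(FPKM + 0.1), RLE and upper-quartile scaling, no filter, each line fitted alone, a replicate block and each library left out. Those that leave out A549 VGF library 2 together with another tool or block were added after seeing the data. No replicate pair agreed within sampling noise (chi-square per degree of freedom 8.47 to 23.8).

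The 10 genes, the other lists and the markers were chosen with earlier results of these data known, so no adjustment over a list alone and no test of a list was made. Named beside the 10 genes were called genes of the other lists, otherwise up to 4 with the smallest p per list and comparison, YAP1, WWTR1 and TEAD1 to TEAD4, and the 5 genes correlating best with CTGF and with CYR61, of which 1 is not reported here. DCHS1, IGFBP7, VGLL2 and the markers shown were picked after their values were seen, where they fall outside this rule. Promoters are from RefSeq. Protein sequences were not used here.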

Additional observations from a re-analysis of the deposited data

How the results depend on the processing

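In A549, 0 of the 10 target genes and 144 features were called with edgeR. The number of target genes called was 1 without a filter on low counts, 3 with DESeq2, 1 with limma voom, and 0 to 2 with 1 library left out. It was 2 with DESeq2, 2 with voom, 1 with FPKM and 1 with the replicate block, each without A549 VGF library 2. The number of features called was 729 with DESeq2, 334 with voom, 43 with the replicate block and 52 to 130 with 1 library left out, and without A549 VGF library 2 it was 432, 217 and 38 with these. In H1299, 0 target genes and 2 features were called. DESeq2 called 2 target genes and 139 features, and 5 and 150 without A549 VGF library 2. Features numbered 5 without a filter, 1 with voom, 4 with FPKM, 4 with H1299 fitted alone, 1 with the replicate block and 1 to 4 with 1 library left out. Without A549 VGF library 2, voom called 4 and the block 1. For the difference between the lines, 29 features were called, 303 with DESeq2, 19 with voom, 2 with the block and 18 to 36 with 1 library left out; without A549 VGF library 2 these were 242, 13 and 10. The cause of these shifts was not tested. No target gene was called for the difference in any setting run, and 8 were called between the lines in every setting run except FPKM without A549 VGF library 2, which called 9. In the fit of all libraries 77.2% of all features were called between the lines. The shares of all features are not given here for no filter in A549 and for FPKM without A549 VGF library 2. The target gene counts of those settings are therefore not read as results.

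Signs turned as follows. In A549, LATS2 was -0.0031 with upper-quartile scaling, -0.0010 and -0.0015 with FPKM (pseudocounts 1 and 0.1) and -0.057 to 0.054 with 1 library left out. Without A549 VGF library 2 it was -0.053 with DESeq2, -0.057 with voom, -0.054 with FPKM and -0.015 with the block, where ANKRD1 was -0.014, against 0.54 in the fit of all libraries. With 1 library left out, AMOTL1 was -0.058 to 0.029, AJUBA -0.0067 to 0.090, LATS2 -0.11 to 0.037 and F3 -0.054 to 0.26 in H1299. The difference between lines was -0.42 to 0.052 for CYR61 (-0.13 with all libraries), -0.026 to 0.12 for LATS2 and -0.040 to 0.27 for F3, and for LATS2 -0.020 with DESeq2, -0.025 with voom and -0.019 with FPKM, all without A549 VGF library 2. Between lines, LATS2 was 0.00077 with RLE, 0.00061 with DESeq2, 0.00011 with voom, 0.0012 with the block, 0.0029 with DESeq2 without A549 VGF library 2 and -0.072 to 0.074 with 1 library left out.

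Replicate numbers did not pair the libraries: deviations of same-numbered VGF and empty-vector libraries correlated at -0.088 to 0.055. With 3 libraries a group, and 2 where one is left out, the number of libraries limits the precision, and F3 has the fewest counts.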

Other observations

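Among 14 paralogs of the target genes (CCN, IGFBP, ANKRD and TFPI families) edgeR called none in either line (0.79% of all features in A549 and 0.011% in H1299). At an unadjusted p under 0.05, 1 was higher and 2 were lower in A549, against 8.1% and 5.77% of all features. Without library 2 these counts were the same, against 5.27% of all features higher, with the share lower not given here. In H1299, 2 were higher and none lower, against 3.13% and 4.67%. DESeq2 called 1 higher and 1 lower in A549, against 2.36% and 1.64%, and 1 higher in H1299, against 0.258%. Limma voom called none, against 1.83% of all features in A549 and 0.00549% in H1299. IGFBP7, a relative of IGFBP3 that is also made by endothelial cells, had 12.03, 27.6 and 9.84 CPM in the A549 VGF libraries and 6.00, 7.08 and 6.31 CPM in the A549 empty-vector libraries, a log2 fold change of 1.35 (adjusted p = 0.129) that was 0.76 (adjusted p = 0.302) without library 2. The groups did not overlap, with or without that library, whose endothelial transcripts sum to 622 CPM, and their part in the result was not tested. IGFBP7 was almost absent from H1299, with 0 counts in 5 of 6 libraries. TFPI2, a Kunitz-type protease inhibitor related to the tissue factor pathway inhibitor, lay in opposite directions in the lines. It stood at 195, 199.9 and 183 CPM in the A549 VGF libraries and 208, 219 and 223 CPM in the A549 empty-vector libraries (-0.17, adjusted p = 0.173, and -0.20 without library 2), and at 19.0, 17.2 and 17.98 CPM in the H1299 VGF libraries and 14.5, 15.9 and 15.5 CPM in the H1299 empty-vector libraries (0.24, adjusted p = 0.294). The difference of -0.41 between these effects was not called (adjusted p = 0.0788, and 0.0633 without A549 VGF library 2). TFPI, the inhibitor of tissue factor itself, had a log2 fold change of -0.21 in A549 (adjusted p = 0.311, and -0.26 without library 2), with all VGF libraries below all empty-vector libraries.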
